A study of Homo sapiens with 16 samples.

Results

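HCC1806 is an established human breast cancer line, triple-negative and of squamous character by general knowledge. Its cells were profiled by RNA-seq as 2D monolayers and as 3D spheroids 10 days after seeding, with 2 libraries in each group, and these 4 libraries of the 16 in the series are compared here. They were chosen by culture and day alone, from the sample titles; the treatment field names monolayers for every sample, the spheroids included. Both groups were grown in RPMI medium with 10% serum and carry no drug, transgene or other agent that the labels name, so they differ by label in the form of culture and the day of sampling. The remaining libraries are HCC1806 spheroids of day 20 and the lines BT474 (monolayers, day 10 and day 20 spheroids, in DMEM), CAL148 and ZR-75-30 (monolayers). No label gives the age of the monolayers or says whether replicates were separate cultures. The p-values therefore measure only a spread between libraries, estimated over the 12 HCC1806 and BT474 libraries together. The age of the culture and its form cannot be told apart in this comparison. The study's title names stem cell enrichment and the response to chemotherapy in spheroids of triple-negative cells as its questions.

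Cells in a spheroid are held together by cell-cell contacts with little support from a stiff plastic surface, and those inside receive less oxygen, nutrient and growth factor than those at the rim. Stratified squamous epithelium, the tissue that squamous tumour cells resemble, divides in its basal layer. Cells that leave that layer stop dividing, exchange their desmosomal cadherins, switch keratins and build a cornified envelope from involucrin, small proline-rich and late cornified envelope proteins, most of which are encoded in a cluster on chromosome 1. Spheroids hold cells in many such states, and in bulk RNA fewer cells of a type and less RNA per cell cannot be told apart.

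Levels are given as normalised CPM, that is CPM scaled with TMM factors (counts relative to library size), and 2 values joined by "and" are replicates 1 and 2 of a group. A change is the log2 fold change of edgeR's fit ± its SE, day 10 against monolayer. A gene was called where the p adjusted over all 20929 genes tested was under 0.05, and "rose" or "fell" is written only of called genes. Beside each such change the "log2 ratios" are those of the day 10 mean to monolayer replicates 1 and 2 in turn, with 0.25 CPM added to both. For genes named without a change the level in each library is given. Library totals were 32.4 M and 36.2 M counts in the monolayers and 40.1 M and 35.1 M in the spheroids. A floor of 3 counts equals at most 0.12 CPM in any of them. Intervals and floors cover counting error only and take each count as independent. Low counts (1 to 20) were even 1.57 to 1.97 times as often as odd in the 4 libraries, a pattern that arises where both mates of a pair are counted. Intervals from counts may therefore be too narrow and bounds from a floor of 3 counts too high.

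The 2 monolayer libraries stood apart. Mitochondrially encoded genes took 17.8% and 0.768% of their counts, against 1.09% and 2.70% in the spheroids, and ribosomal protein genes took 13.5% and 4.20% against 5.92% and 5.61%. Over all genes tested, replicates differed on the log2 scale with an SD of 1.53 in the monolayers and 0.358 in the spheroids. Gene length moved with it: over the 5233 genes with the shortest models the median log2 ratio of the spheroids was -0.27 to monolayer replicate 1 and 0.11 to replicate 2, and over the 5232 with the longest it was 0.65 and 0.11. The part of the mitochondrial share and of gene length in the results was not tested. The epithelial label was met by high levels of KRT5 (1563 and 2997 CPM in the monolayers against 2574 and 2317 in the spheroids) and EPCAM (332 and 354 CPM against 294 and 279). Of 8 fibroblast, 8 endothelial and 8 leukocyte markers 5, 5 and 4 passed the count filter, edgeR called 0 of these 14 (5 at an unadjusted p under 0.05 and 3 by DESeq2, all higher, and 0 by voom), and their summed levels in the 4 libraries ran from 1.20 to 4.06, 4.17 to 5.36 and 0.769 to 8.73 CPM. COL1A2, TEK and ROBO4 were at 0 counts in all 4 libraries.

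At day 10, 1076 genes rose (5.14% of those tested) and 750 fell (3.58%). All 1826 lay entirely above or entirely below both monolayer libraries, whatever their size. Calls were kept only on that condition, so it adds no support where it is restated for called genes. A small spread between replicates also favours a call, so agreement of the monolayer libraries in called genes adds none either. Such separation is common here: in 25.5% of all genes tested both spheroid libraries lay above both monolayer libraries, in 17.1% below, and in 57.4% the groups overlapped. Over all genes tested the median change was 0.00 and the median log2 ratio was 0.10 and 0.11 to the 2 monolayer libraries, and 45.4% of the genes lay on opposite sides of them (a further 565 had a ratio of 0 to at least 1 of them). At least 2-fold from each monolayer library were 646 of the genes that rose (3.09% of those tested) and 236 of those that fell (1.13%). By annotation 1009 of the genes that rose and 681 of those that fell were protein coding. The gene lists used below and their members were chosen with earlier results of these data known. Counts of calls within a list therefore describe it and are no independent test. They are to be read beside the 5.14% higher and 3.58% lower of all genes tested.

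**Figure D1:**
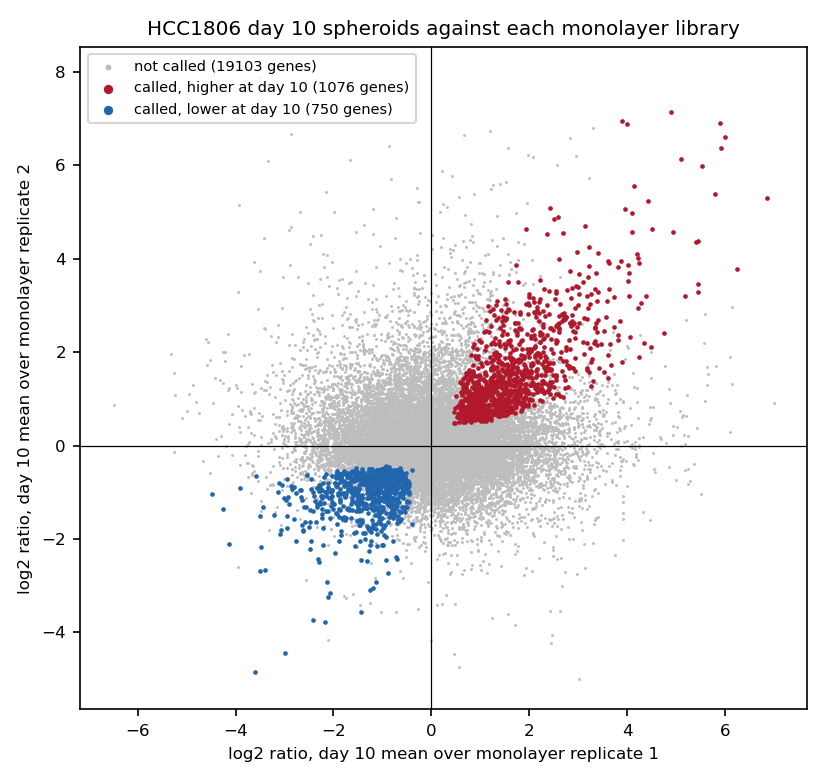
Each point is a gene tested. The x axis gives the log2 ratio of the day 10 mean to monolayer replicate 1 and the y axis that to replicate 2, on normalised CPM with 0.25 added. The 1076 genes called higher (red) lie in the upper right and the 750 called lower (blue) in the lower left, while many grey genes lie far from 0 on a single axis.

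These calls rest on a spread shared by 6 groups of 2 libraries, of which the HCC1806 monolayers varied most. Their replicates differed with an SD of 1.53 on the log2 scale, against 0.28 to 0.398 in the other groups. The shared spread may therefore be too small for this comparison, and the SEs and p-values with it. Fitted on the 4 libraries alone edgeR called 0 genes (1399 of 17936 had an unadjusted p under 0.05), and on the 6 HCC1806 libraries alone also 0 (2915 of 18869). On the 12 libraries DESeq2 called 4259 genes (2040 higher and 2060 lower without overlap), and limma voom with a weight for each library called 59, of which 48 were among the 1826. Without day 10 replicate 1 the calls numbered 177 and without replicate 2 they numbered 152. The 143 called genes that passed without each of these in turn (128 higher and 15 lower) also passed without each of the other 10 libraries. Without monolayer replicate 1 and replicate 2 the calls numbered 8617 and 11877, in fits that lack the spread of that group. Every called gene kept its direction in each of these and the other alternatives in which it was tested. Calls were kept only where the groups did not overlap, so this was nearly fixed in advance and adds no support. An exact permutation test of 2 libraries against 2 cannot go below p = 0.333, so none was run on single genes.

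The 15 genes with the largest rises, among protein-coding genes with a mean of at least 5 CPM, included transporters, secreted factors and enzymes (adjusted p from 0.0012 to 0.0275). CLCA4, a regulator of chloride channels (ENSG00000016602, chromosome 1, 86547078 to 86580754 on the plus strand), measured 0.881 and 0.494 CPM in the monolayers and 67.4 and 76.6 CPM in the spheroids and rose by 6.73 ± 0.47 (log2 ratios 5.997 and 6.60, adjusted p = 0.00174). With 0.25 CPM added, its mean spheroid level was 63.9 and 97.1 times that of the 2 monolayer libraries. CYP24A1, the hydroxylase that inactivates vitamin D (ENSG00000019186, chromosome 20, 54153449 to 54173973 on the minus strand), measured 0.3205 and 0.165 CPM in the monolayers and 35.99 and 32.5 CPM in the spheroids. CD36, which takes up fatty acids (ENSG00000135218, chromosome 7, 80369575 to 80679277 on the plus strand), measured 0.361 and 0.0549 CPM in the monolayers and 34.6 and 37.4 CPM in the spheroids and rose by 7.53 ± 1.10 (log2 ratios 5.89 and 6.89, adjusted p = 0.00686). None of these 3 genes reached 1 CPM in either monolayer library. BMP3, a secreted antagonist of BMP signalling, measured 4.53 and 2.09 CPM in the monolayers and 157 and 171 CPM in the spheroids, and KL, which encodes the FGF co-receptor klotho, measured 0.641 and 0.906 CPM in the monolayers and 26.8 and 27.3 CPM in the spheroids. CP, the ferroxidase ceruloplasmin, stood at 0.2404 and 0.1098 CPM in the monolayers and 25.5 and 19.5 in the spheroids. TG, the thyroglobulin gene, stood at 1.76 and 0.906 CPM in the monolayers and 44.7 and 41.1 in the spheroids, and BCAS1, a gene often amplified in breast cancer, at 2.48 and 0.329 and 84.04 and 79.5 CPM. The 15 largest rises by this measure ranged from 17.2-fold to 63.9-fold against the nearer monolayer library. CLCA4, CYP24A1, TG and BCAS1 passed in every leave-one-out fit, and CD36, BMP3, KL and CP did not (highest adjusted p per gene 0.0533 to 0.103).

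The 15 genes with the largest falls by the same rule included growth factors, enzymes and receptors (adjusted p from 0.000973 to 0.0359). AREG, the EGF receptor ligand amphiregulin (ENSG00000109321, chromosome 4, 74445134 to 74455009 on the plus strand), measured 46.4 and 26.2 CPM in the monolayers and 3.74 and 4.003 CPM in the spheroids and fell by 3.23 ± 0.32 (log2 ratios -3.50 and -2.68, adjusted p = 0.00206). GAL, the neuropeptide galanin, measured 46.6 and 118 CPM in the monolayers and 9.76 and 7.35 CPM in the spheroids. CYR61, a matrix protein induced by YAP (ENSG00000142871, chromosome 1, 85580761 to 85583962 on the plus strand), measured 44.4 and 37.3 CPM in the monolayers and 7.79 and 7.82 CPM in the spheroids and fell by 2.39 ± 0.21 (log2 ratios -2.47 and -2.22, adjusted p = 0.00143). All of these lay lower in both spheroid libraries than in either monolayer library. SRM, which makes spermidine (ENSG00000116649, chromosome 1, 11054584 to 11060024 on the minus strand), measured 244 and 257 CPM in the monolayers and 71.2 and 63.9 CPM in the spheroids and fell by 1.89 ± 0.16 (log2 ratios -1.85 and -1.93, adjusted p = 0.00107). UPP1, a uridine phosphorylase, measured 43.1 and 32.1 CPM in the monolayers and 7.69 and 7.48 CPM in the spheroids, and TNFRSF12A, the receptor of the cytokine TWEAK, measured 345 and 201 CPM in the monolayers and 60.05 and 51.7 CPM in the spheroids. UCHL1, a deubiquitinase of neurons and many tumours, measured 832 and 609 CPM in the monolayers and 180.0 and 178 CPM in the spheroids and fell by 2.01 ± 0.22 (log2 ratios -2.21 and -1.76, adjusted p = 0.0027). In SRM and UCHL1 both spheroid values were under 200 CPM and all 4 monolayer values over it. FST, the activin antagonist follistatin, differed between the monolayer libraries (23.95 and 73.4 CPM) and lay below both in the spheroids (5.72 and 4.56 CPM). CPA4, a carboxypeptidase, had the same pattern (76.7 and 162 CPM in the monolayers and 18.1 and 17.9 in the spheroids), as did UNC13D, a factor of vesicle release (78.4 and 172 and 18.9 and 16.9 CPM). The 15 largest falls by this measure, also with 0.25 CPM added, ranged from 3.40-fold to 6.43-fold against the nearer monolayer library. AREG, CYR61, SRM and UCHL1 passed in every leave-one-out fit, and GAL, UPP1, TNFRSF12A, FST, CPA4 and UNC13D did not (highest adjusted p per gene 0.0533 to 0.228).

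**Figure D2:**
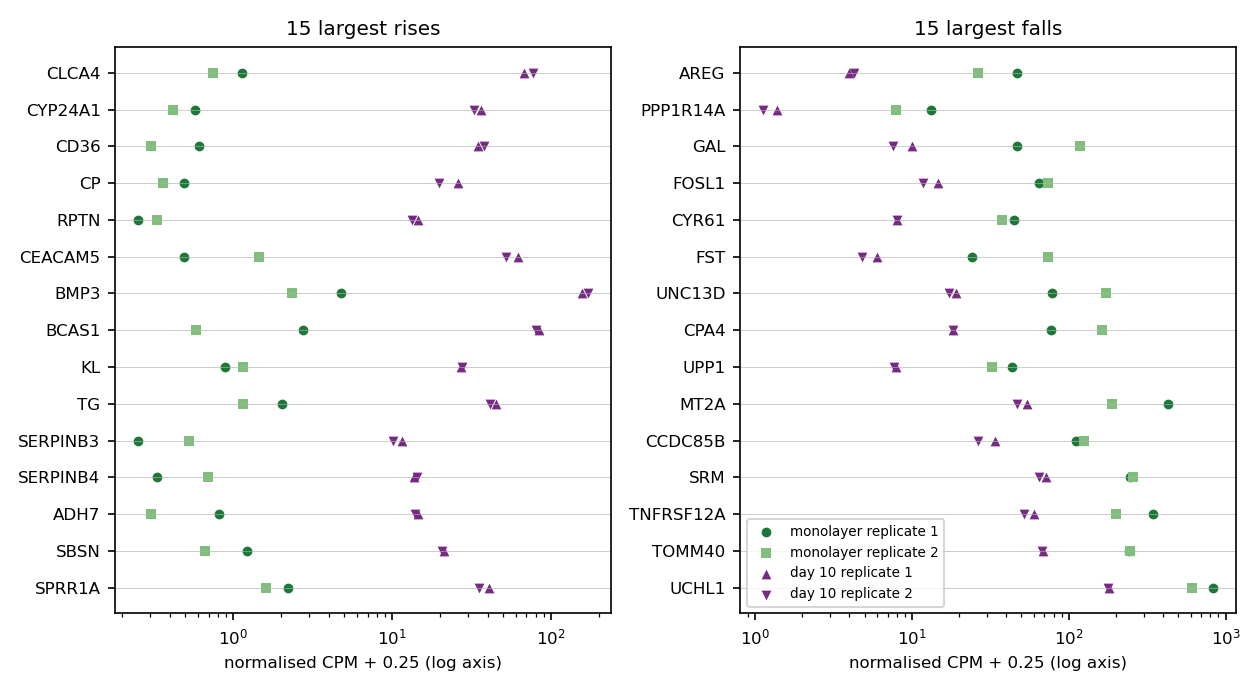
Normalised CPM with 0.25 added, on a log axis, of the 15 genes with the largest rises (left) and the 15 with the largest falls (right), ordered by the log2 ratio to the nearer monolayer library. Each mark is a library, and in every gene drawn the 2 spheroid marks lie together and beyond both monolayer marks.

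Of the 7 desmosomal cadherins DSG1, DSG3, DSG4, DSC1 and DSC3 rose in the spheroids, and the widely expressed DSG2 and DSC2 were not called. Of 16 epidermal adhesion genes 15 were tested, 7 rose and 1 fell, and their median change was 0.67. DSG1, the desmoglein of the upper epidermis (ENSG00000134760, chromosome 18, 31318089 to 31357029 on the plus strand), had 0 counts in both monolayer libraries and 146 and 119 counts in the spheroids, at least 67.4-fold higher where the monolayer group as a whole is set to 3 counts (adjusted p = 0.00388). DSG4, another desmoglein of differentiated layers, measured 0.0801 and 0.0549 CPM in the monolayers and 7.503 and 7.11 CPM in the spheroids and rose by 6.73 ± 0.67 (log2 ratios 4.52 and 4.63, adjusted p = 0.00422). Spheroid levels were far above the floor and monolayer levels at or below it for both. DSG3 and DSC3, the desmosomal cadherins of the basal layer, were abundant in both cultures. DSG3 measured 23.7 and 29.98 CPM in the monolayers and 101.5 and 94.6 CPM in the spheroids and rose by 1.87 ± 0.21 (log2 ratios 2.04 and 1.70, adjusted p = 0.00781), and DSC3 measured 63.6 and 98.2 CPM in the monolayers and 329 and 299 CPM in the spheroids and rose by 1.96 ± 0.46 (log2 ratios 2.30 and 1.67, adjusted p = 0.035). DSC1, a desmocollin of the upper layers, measured 0 and 0.192 CPM in the monolayers and 2.799 and 2.63 CPM in the spheroids (adjusted p = 0.0168). DSG2 measured 35.2 and 271 CPM in the monolayers and 189 and 188 CPM in the spheroids, between the monolayer libraries (log2 ratios 2.41 and -0.52, adjusted p = 0.831). DSC2 measured 13.1 and 50.3 CPM in the monolayers and 50.8 and 48.5 CPM in the spheroids, close to monolayer replicate 2 (log2 ratios 1.90 and -0.02, adjusted p = 0.426). PKP1, a plaque protein of the suprabasal layers, rose by 0.86 ± 0.21 (log2 ratios 1.20 and 0.59), and PKP3, a more widely expressed plakophilin, fell by 0.69 ± 0.18 (log2 ratios -0.51 and -0.85) (adjusted p = 0.0389 and 0.0461). Among 20 keratins, the intermediate filament proteins of epithelia, 2 rose and 2 fell. The suprabasal keratin KRT1 measured 2.96 and 0.137 CPM in the monolayers and 49.9 and 44.8 CPM in the spheroids and rose by 4.99 ± 1.07 (log2 ratios 3.89 and 6.94, adjusted p = 0.0254). Its partner KRT10 was not called and measured 142 and 56.2 CPM in the monolayers and 83.9 and 80.6 CPM in the spheroids (log2 ratios -0.79 and 0.55, adjusted p = 0.675). KRT16, a keratin of activated epidermis, measured 56.3 and 16.7 CPM in the monolayers and 209.8 and 174 CPM in the spheroids. Of 4 keratins of simple epithelia KRT18 and KRT7 fell, and KRT8 and KRT19 were not called. KRT18 measured 831 and 361 CPM in the monolayers and 164 and 154 CPM in the spheroids (adjusted p = 0.0148) and KRT7 measured 1313 and 1035 CPM in the monolayers and 599 and 564 CPM in the spheroids (adjusted p = 0.0313). KRT8 (-0.52 ± 0.21, log2 ratios -0.42 and -0.62, adjusted p = 0.153) lay below both monolayer libraries, and KRT19 (-0.31 ± 0.34, log2 ratios -0.77 and 0.37, adjusted p = 0.607) between them. The basal keratins KRT5 (0.10 ± 0.70, log2 ratios 0.65 and -0.29, adjusted p = 0.963) and KRT14 (-1.61 ± 0.45, log2 ratios -2.06 and -0.95, adjusted p = 0.0776) were not called. KRT14 measured 1916 and 888 CPM in the monolayers and 482 and 437 CPM in the spheroids, below both monolayer libraries. DSG1 and DSG4 passed in every leave-one-out fit, and DSC1, DSG3, DSC3, PKP1, PKP3, KRT1, KRT16, KRT18 and KRT7 did not (highest adjusted p per gene 0.0803 to 0.33).

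Of 22 genes of the epidermal differentiation complex on chromosome 1, 21 were tested, 7 rose and 0 fell. Their median change was 2.13, and in 15 both spheroid libraries lay above both monolayer libraries. RPTN, which encodes the matrix protein repetin (ENSG00000215853, chromosome 1, 152153595 to 152159228 on the minus strand), had 0 and 3 counts in the monolayers and 605 and 496 counts in the spheroids, a ratio of 279.9 (95% interval 95.5 to 1359.5) (adjusted p = 0.0104). SPRR1B, a small proline-rich envelope precursor (ENSG00000169469, chromosome 1, 153031202 to 153032900 on the plus strand), measured 9.09 and 16.4 CPM in the monolayers and 166 and 142 CPM in the spheroids and rose by 3.59 ± 0.72 (log2 ratios 4.04 and 3.21, adjusted p = 0.0199). IVL, the envelope scaffold involucrin (ENSG00000163207, chromosome 1, 152908545 to 152911886 on the plus strand), measured 5.49 and 24.8 CPM in the monolayers and 87.3 and 83.8 CPM in the spheroids and rose by 2.49 ± 0.64 (log2 ratios 3.90 and 1.78, adjusted p = 0.0469). The monolayer libraries differed from each other several-fold in IVL and both lay below the spheroids. PGLYRP3, an antibacterial peptidoglycan recognition protein, measured 0.761 and 0.2196 CPM in the monolayers and 15.97 and 14.9 CPM in the spheroids, SPRR1A measured 1.96 and 1.35 CPM in the monolayers and 40.2 and 35.2 CPM in the spheroids, and the late envelope genes LCE3D and LCE3E measured 12.3 and 11.4 CPM and 2.54 and 1.29 CPM in the spheroids, and at most 1.12 CPM in the monolayers. SPRR and LCE genes have near copies that may share or lose reads. LOR and FLG, the late proteins loricrin and profilaggrin, were not called: LOR measured 0.0801 and 0 CPM in the monolayers and 0.04704 and 0.474 CPM in the spheroids, and FLG measured 0 and 4.83 CPM in the monolayers and 9.38 and 7.16 CPM in the spheroids (adjusted p = 0.353 and 0.466). None of RPTN, SPRR1B, IVL, PGLYRP3, SPRR1A, LCE3D and LCE3E passed in every leave-one-out fit (highest adjusted p per gene 0.0589 to 0.188).

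Upstream sequences of 3 of these genes are shown because 7 members of the cluster rose and none fell, and AP-1 sites upstream are textbook features of such genes. Each is the 150 bases before the RefSeq start (GRCh38.p14, within 20 bases of the gene start in the deposited table), 5′ to 3′ on the gene's strand, with AP-1-type letters (TGANTCA, searched on both strands) in capitals. They lie at chr1:152159229-152159378 on the minus strand (RPTN), chr1:153031053-153031202 on the plus strand (SPRR1B) and chr1:152908396-152908545 on the plus strand (IVL).
RPTN: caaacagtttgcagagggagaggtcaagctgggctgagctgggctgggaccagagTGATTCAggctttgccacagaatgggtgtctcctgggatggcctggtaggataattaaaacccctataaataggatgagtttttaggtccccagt
SPRR1B: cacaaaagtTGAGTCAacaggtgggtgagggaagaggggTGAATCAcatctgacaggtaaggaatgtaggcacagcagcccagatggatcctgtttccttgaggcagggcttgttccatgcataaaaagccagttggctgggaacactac
IVL: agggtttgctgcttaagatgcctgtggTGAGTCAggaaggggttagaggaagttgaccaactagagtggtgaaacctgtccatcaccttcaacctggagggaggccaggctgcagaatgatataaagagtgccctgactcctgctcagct
The letters begin 95 bases before the start in RPTN, 141 and 111 in SPRR1B and 123 in IVL. In windows of 250 bases before the start, 11 of 19 tested members of the complex with a RefSeq entry held them (57.9%), as did 4 of the 7 that rose. The share was 4.68% over the 13540 tested genes with an entry and 6.60% over all 27305 promoters of the table. Among all genes that rose it was 5.78%. A match describes letters and does not show a bound site. Of the genes of AP-1 subunits FOSL1 fell (given with its values below), FOSL2 rose by 1.26 ± 0.22 (log2 ratios 1.29 and 1.23, adjusted p = 0.0114), and FOS (-2.71 ± 0.96, log2 ratios -3.54 and -0.12) and FOSB (-3.08 ± 1.06, log2 ratios -3.92 and 0.40) were not called (adjusted p = 0.118 and 0.111).

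Of 30 tested genes of cornification enzymes, barrier lipids and their regulators 9 rose and 0 fell, with a median change of 0.63. SBSN, the secreted epidermal protein suprabasin (ENSG00000189001, chromosome 19, 35523367 to 35528351 on the minus strand), measured 0.961 and 0.412 CPM in the monolayers and 20.9 and 20.4 CPM in the spheroids and rose by 4.94 ± 0.49 (log2 ratios 4.11 and 4.98, adjusted p = 0.00215). SPINK5, an inhibitor of the proteases that shed skin cells, measured 3.24 and 3.51 CPM in the monolayers and 39.4 and 33.8 CPM in the spheroids and rose by 3.43 ± 0.58 (log2 ratios 3.40 and 3.29, adjusted p = 0.0142). ABCA12, the lipid transporter of lamellar granules, measured 40.3 and 32.1 CPM in the monolayers and 148 and 122 CPM in the spheroids and rose by 1.90 ± 0.27 (log2 ratios 1.74 and 2.07, adjusted p = 0.00641). In each of these 3 genes both spheroid libraries lay above both monolayer libraries. CYP4F22, which makes the long acyl chains of skin ceramides, had 1 and 0 counts in the monolayers and 79 and 89 counts in the spheroids, a ratio of 128 (95% interval 22.7 to 5091) (adjusted p = 0.00498). Of 5 transcription factors of barrier formation on the list, 3 rose and 2 were not called. GRHL3 measured 16.4 and 12.02 CPM in the monolayers and 43.6 and 41.2 CPM in the spheroids, and OVOL1 measured 15.7 and 13.7 CPM in the monolayers and 32.9 and 29.7 CPM in the spheroids (adjusted p = 0.0437 and 0.0111). GRHL1, the third that rose, measured 10.1 and 7.44 CPM in the monolayers and 18.98 and 20.04 CPM in the spheroids (adjusted p = 0.013). ZNF750 (1.40 ± 0.92, log2 ratios 0.45 and 4.18, adjusted p = 0.372) and KLF4 (0.48 ± 0.21, log2 ratios 0.80 and 0.21, adjusted p = 0.188), both above both monolayer libraries, were those not called. The crosslinking enzyme TGM5 rose (adjusted p = 0.0299), from 0.1602 and 0 CPM to 3.48 and 4.69. TGM1 and TGM3, the transglutaminases best known from the envelope, were not called, and TGM1 measured 23.2 and 1.98 CPM in the monolayers and 2.09 and 2.502 CPM in the spheroids, close to monolayer replicate 2 and far below replicate 1. Letters bound by grainyhead-like factors (AACNGGTT) stood in 2.17% of the upstream windows of genes that rose in 0.683% of those of genes that fell and in 1.24% over all tested genes with an entry. SERPINB3 and SERPINB4, a near-identical pair of squamous protease inhibitors whose reads may be shared, measured 11.3 and 9.93 CPM and 13.5 and 14.1 CPM in the spheroids and at most 0.439 CPM in the monolayers. They were the only 2 of 24 tested serpins and protease inhibitors to be called (adjusted p = 0.0275 and 0.0148). That is 8.33%, beside 5.14% of all genes tested. SBSN and CYP4F22 passed in every leave-one-out fit, and SPINK5, ABCA12, GRHL1, GRHL3, OVOL1, TGM5, SERPINB3 and SERPINB4 did not (highest adjusted p per gene 0.0602 to 0.196).

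Levels of some of these genes in the day 20 spheroids are given side by side and without a test, because that comparison shares the monolayers. KRT1 measured 723 and 764 CPM at day 20, DSG1 38.8 and 40.8, SBSN 104 and 55.1 and KRTDAP, a secreted protein of differentiating keratinocytes, 48.7 and 41.7 (day 10 8.44 and 7.56, monolayers 1.12 and 0.0275). RPTN stood at 19.9 and 8.37 CPM, on both sides of its day 10 values.

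**Figure D3:**
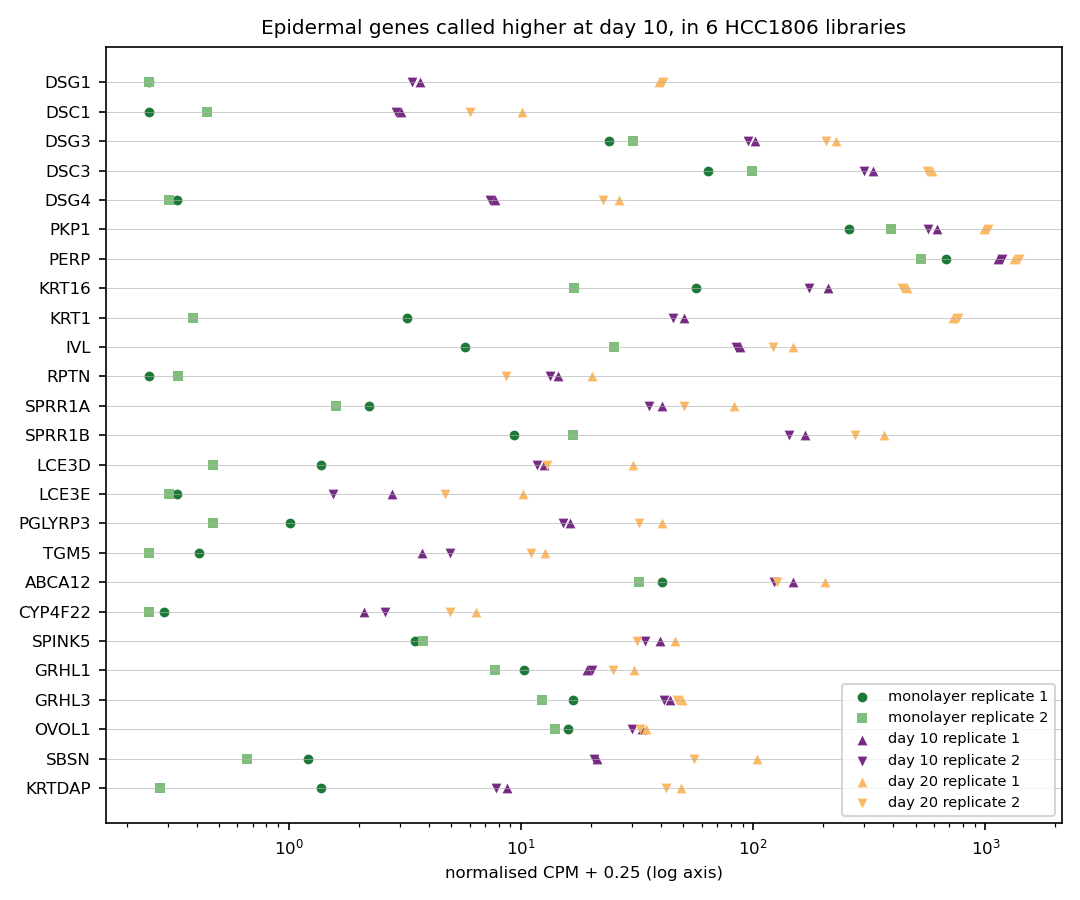
Normalised CPM with 0.25 added, on a log axis, of the 25 genes of desmosomal adhesion, keratins, the epidermal differentiation complex and cornification that were called higher at day 10. Marks are the 6 HCC1806 libraries, and in each gene the purple day 10 marks lie to the right of both green monolayer marks.

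Several secreted proteases rose. Of 23 matrix metalloproteinases and plasminogen genes 21 were tested, 5 rose and 0 fell (median change 0.71). MMP13, a collagenase (ENSG00000137745, chromosome 11, 102942995 to 102955734 on the minus strand), measured 2.08 and 2.44 CPM in the monolayers and 41.4 and 45.7 CPM in the spheroids and rose by 4.26 ± 0.24 (log2 ratios 4.23 and 4.02, adjusted p = 0.000216). PLAU, the plasminogen activator urokinase, measured 41.7 and 31.7 CPM in the monolayers and 156 and 149 CPM in the spheroids and rose by 2.05 ± 0.40 (log2 ratios 1.86 and 2.26, adjusted p = 0.0177). MMP7, matrilysin, measured 0.1602 and 0.275 CPM in the monolayers and 2.21 and 2.11 CPM in the spheroids, and MMP28, epilysin, measured 6.77 and 3.24 CPM in the monolayers and 26.9 and 29 CPM in the spheroids. In all 4 genes every spheroid value exceeded every monolayer value. MMP1 and MMP2 were not called, and their monolayer libraries disagreed: MMP1 had 0 and 64.8 CPM in them and 2.05 and 1.53 in the spheroids, and MMP2 had 1.002 and 28.3 CPM in them and 45.6 and 40.8 in the spheroids. MMP13 passed in every leave-one-out fit, and PLAU, MMP7 and MMP28 did not (highest adjusted p per gene 0.0975 to 0.121).

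The vitamin D and retinoid list had 5 of 26 genes higher and 1 lower. Besides CYP24A1, the retinol uptake receptor STRA6 had 0 and 1 counts in the monolayers and 141 and 163 counts in the spheroids, a ratio of 232 (95% interval 41.3 to 9189) (adjusted p = 0.00519). RXRA, the partner receptor of both vitamin D and retinoic acid receptors, measured 378 and 286 CPM in the monolayers and 835 and 802 CPM in the spheroids and rose by 1.30 ± 0.20 (log2 ratios 1.11 and 1.51, adjusted p = 0.00775). RARB, a receptor induced by retinoic acid, measured 3.97 and 8.54 CPM in the monolayers and 19.5 and 19.6 CPM in the spheroids, and RDH10, which makes retinal, measured 31.6 and 12.9 CPM in the monolayers and 87.8 and 87.7 CPM in the spheroids (adjusted p = 0.0299 and 0.0123). VDR, the vitamin D receptor, fell by 0.66 ± 0.16 (log2 ratios -0.54 and -0.75), from 23.2 and 26.8 to 15.4 and 16.3 CPM (adjusted p = 0.0398). The receptor thus fell while CYP24A1, a gene that it is known to induce, rose. CYP27B1, which activates vitamin D, was not called, at 5.61 and 1.24 CPM in the monolayers and 1.86 and 2.502 CPM in the spheroids. STRA6 passed in every leave-one-out fit, and RXRA, RARB, RDH10 and VDR did not (highest adjusted p per gene 0.0692 to 0.265).

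Genes of luminal and hormone-responsive breast epithelium were partly higher. Of 19 tested 7 rose and 1 fell, the fall being KRT18. ELF5, the factor of alveolar progenitors (ENSG00000135374, chromosome 11, 34478793 to 34513805 on the minus strand), measured 0.1602 and 0.165 CPM in the monolayers and 3.81 and 3.56 CPM in the spheroids and rose by 4.47 ± 0.27 (log2 ratios 3.26 and 3.25, adjusted p = 0.000216). FOXA1, the pioneer factor of hormone receptors, measured 13.6 and 30.6 CPM in the monolayers and 98.3 and 97.3 CPM in the spheroids and rose by 2.15 ± 0.33 (log2 ratios 2.83 and 1.67, adjusted p = 0.00775). AGR2, a disulphide isomerase of secretory cells, measured 94.1 and 67.9 CPM in the monolayers and 244 and 244 CPM in the spheroids and rose by 1.59 ± 0.19 (log2 ratios 1.37 and 1.84, adjusted p = 0.00336). Both spheroid libraries lay above both monolayer libraries in these 3 genes. ESR1 measured 1.84 and 14.1 CPM in the monolayers and 16.5 and 11.8 CPM in the spheroids and was not called (adjusted p = 0.493), and PGR was at 0 counts in all 4 libraries. Of 6 basal markers edgeR called 0 (1 higher and 2 lower at an unadjusted p under 0.05, the same numbers by DESeq2, 0 by voom), with KRT17 at 1556 and 94.5 CPM in the monolayers and 148 and 128 CPM in the spheroids. ELF5 and AGR2 passed in every leave-one-out fit, and FOXA1 did not (highest adjusted p 0.0677).

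In EGF receptor signalling a ligand fell and 3 receptors rose. Of 30 tested ligands, receptors and MAPK feedback genes 4 rose and 4 fell. AREG fell, while the ligands EREG (13.1 and 37.2 CPM in the monolayers and 51.3 and 56.7 CPM in the spheroids) and HBEGF (55.1 and 10.7 CPM in the monolayers and 55.3 and 55.1 CPM in the spheroids) were not called. The receptors ERBB2 and ERBB3 rose by 0.86 ± 0.20 (log2 ratios 0.90 and 0.83) and 0.87 ± 0.19 (log2 ratios 0.64 and 1.15) (adjusted p = 0.0309 and 0.028). ERBB3 measured 121 and 85.1 CPM in the monolayers and 196 and 181 CPM in the spheroids. ERBB4 measured 0.0801 and 0.631 CPM in the monolayers and 3.55 and 2.34 CPM in the spheroids (adjusted p = 0.0326), and EGFR, at 191 and 381 CPM in the monolayers and 358 and 307 CPM in the spheroids, was not called. Among genes switched on by MAPK activity, FOSL1 measured 64.3 and 74.1 CPM in the monolayers and 14.4 and 11.6 CPM in the spheroids and fell by 2.41 ± 0.57 (log2 ratios -2.29 and -2.49, adjusted p = 0.0359), and the phosphatase DUSP2 measured 15.7 and 5.600 CPM in the monolayers and 1.55 and 2.05 CPM in the spheroids and fell by 2.56 ± 0.47 (log2 ratios -2.95 and -1.51, adjusted p = 0.0152). The receptor inhibitor ERRFI1 fell by 0.61 ± 0.16 (log2 ratios -0.58 and -0.64), and the feedback inhibitor SPRY1, another product of the pathway, rose by 1.99 ± 0.34 (log2 ratios 1.54 and 2.14) (adjusted p = 0.0461 and 0.0114). None of ERBB2, ERBB3, ERBB4, FOSL1, DUSP2, ERRFI1 and SPRY1 passed in every leave-one-out fit (highest adjusted p per gene 0.0898 to 0.272).

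Of 23 tested YAP/TAZ targets 0 rose and 5 fell, with a median change of -0.51. YAP and TAZ are coactivators that are active in spread cells on a stiff support. Besides CYR61 and FOSL1 they held FJX1, a secreted planar polarity protein, which measured 179 and 262 CPM in the monolayers and 84.5 and 85.6 CPM in the spheroids and fell by 1.38 ± 0.21 (log2 ratios -1.07 and -1.62, adjusted p = 0.00795). GADD45B, a stress-induced gene, measured 48.2 and 29.98 CPM in the monolayers and 19.4 and 16.04 CPM in the spheroids (adjusted p = 0.0247). AJUBA, a LIM protein of cell junctions, measured 249.8 and 335 CPM in the monolayers and 189 and 177 CPM in the spheroids and fell by 0.67 ± 0.18 (log2 ratios -0.45 and -0.87, adjusted p = 0.0496). CTGF, a much used target of the pathway, measured 6.01 and 7.27 CPM in the monolayers and 1.76 and 2.29 CPM in the spheroids, with no overlap between the groups, and was not called (adjusted p = 0.19). Against monolayer replicate 1 the list's median log2 ratio was 0.04 and against replicate 2 it was -0.85. The 5 genes that fell lay below both libraries by the rule for keeping calls. None of FJX1, GADD45B and AJUBA passed in every leave-one-out fit (highest adjusted p per gene 0.0991 to 0.31).

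Targets of the hypoxia-inducible factors rose in part. Of 36 tested 6 rose and 1 fell (median change 0.47, median log2 ratios 0.61 and 0.42 to the 2 monolayer libraries). NDRG1, a stress-induced differentiation gene, measured 184 and 122 CPM in the monolayers and 1049.7 and 1083 CPM in the spheroids and rose by 2.80 ± 0.26 (log2 ratios 2.53 and 3.13, adjusted p = 0.00167). The glucose transporter SLC2A1 measured 243 and 227 CPM in the monolayers and 509 and 477 CPM in the spheroids and rose by 1.07 ± 0.16 (log2 ratios 1.02 and 1.12, adjusted p = 0.00775). EGLN1, the oxygen-sensing hydroxylase that marks HIF for destruction, measured 39.02 and 38.8 CPM in the monolayers and 74.2 and 70.3 CPM in the spheroids and rose by 0.89 ± 0.16 (log2 ratios 0.88 and 0.89, adjusted p = 0.012). In these 3 genes the groups did not overlap, and in SLC2A1 and EGLN1 the replicates lay close together. CA12 measured 8.69 and 19.5 CPM in the monolayers and 55.4 and 48.9 CPM in the spheroids, and BHLHE40 measured 25.1 and 36.3 CPM in the monolayers and 124 and 121 CPM in the spheroids. A much used hypoxia marker, the carbonic anhydrase CA9, stayed below 1 CPM in all 4 libraries (0.401 and 0.412 CPM in the monolayers, 0.494 and 0.685 in the spheroids) and was not called (adjusted p = 0.832). VEGFA was not called, at 227 and 49.8 CPM in the monolayers and 189 and 248 CPM in the spheroids, and BNIP3, a mitophagy receptor, fell by 0.76 ± 0.19 (log2 ratios -0.95 and -0.52, adjusted p = 0.0452). None of 14 glycolysis genes rose and 2 fell, LDHB from 21.8 and 10.3 to 4.73 and 5.35 CPM and the lactate transporter SLC16A1 from 94.3 and 156 to 62.2 and 61.7 CPM (adjusted p = 0.0314 and 0.0396). Core letters of hypoxia response elements (ACGTG) stood in the 250 bases before the start of 17 of 31 HIF targets with an entry (54.8%). They stood in 3 of the 5 of these that rose (60%). The share was 22.5% over the tested genes with an entry, 21.7% over all genes that rose and 26.1% over all that fell. Among all genes that rose the letters were thus no more frequent than among the tested genes with an entry. NDRG1 passed in every leave-one-out fit, and SLC2A1, EGLN1, CA12, BHLHE40, BNIP3, LDHB and SLC16A1 did not (highest adjusted p per gene 0.0559 to 0.31).

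Detoxifying enzymes formed a further group of rises. Of 29 NRF2 targets and aldo-keto reductases 8 rose and 1 fell, and of 22 tested xenobiotic and aryl hydrocarbon receptor genes 7 rose and 0 fell. ALDH3B2, an aldehyde dehydrogenase (ENSG00000132746, chromosome 11, 67662162 to 67681200 on the minus strand), measured 0.441 and 0.549 CPM in the monolayers and 6.09 and 6.43 CPM in the spheroids and rose by 3.64 ± 0.22 (log2 ratios 3.24 and 3.03, adjusted p = 0.000216). ALDH3A1, which oxidises aldehydes and cyclophosphamide derivatives, measured 80.1 and 77.5 CPM in the monolayers and 293 and 267 CPM in the spheroids and rose by 1.83 ± 0.17 (log2 ratios 1.80 and 1.85, adjusted p = 0.00556). CYP1B1, a well-known target of the aryl hydrocarbon receptor, measured 19.99 and 104 CPM in the monolayers and 537 and 560.1 CPM in the spheroids and rose by 3.15 ± 0.77 (log2 ratios 4.76 and 2.40, adjusted p = 0.0407). The 2 monolayer libraries agreed in ALDH3A1 and differed several-fold in CYP1B1. ADH7, which oxidises retinol and ethanol, measured 0.561 and 0.0549 CPM in the monolayers and 14.3 and 13.7 CPM in the spheroids. The receptor AHR itself rose by 1.04 ± 0.26 (log2 ratios 0.75 and 1.40), and its target TIPARP measured 33.5 and 46.6 CPM in the monolayers and 104 and 105 CPM in the spheroids (adjusted p = 0.0429 and 0.00566). AKR1B1, aldose reductase, measured 80.04 and 187 CPM in the monolayers and 539 and 509 CPM in the spheroids, AKR1C1 measured 140.4 and 296 CPM in the monolayers and 787 and 862 CPM in the spheroids and AKR1C2 measured 731 and 860.5 CPM in the monolayers and 3410.2 and 3328 CPM in the spheroids. AKR1C1 and AKR1C2 are near-identical and may share reads. GCLC, which makes the precursor of glutathione, measured 163 and 154 CPM in the monolayers and 312 and 319.7 CPM in the spheroids and rose by 0.99 ± 0.14 (log2 ratios 0.95 and 1.03, adjusted p = 0.00622). The usual indicators NQO1 (-0.22 ± 0.17, log2 ratios -0.03 and -0.38, adjusted p = 0.45) and HMOX1 (0.37 ± 0.33, log2 ratios 0.08 and 0.70, adjusted p = 0.522) were not called. Antioxidant response letters (TGACNNNGC, which can overlap the AP-1-type letters) were found in 5 of 21 genes of the NRF2 list with an entry and in 0 of the 5 of them that rose, beside 12.1% of the tested genes. ALDH3B2 passed in every leave-one-out fit, and ALDH3A1, CYP1B1, ADH7, AHR, TIPARP, AKR1B1, AKR1C1, AKR1C2 and GCLC did not (highest adjusted p per gene 0.0638 to 0.201).

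Genes of metal handling changed in both directions. SLC40A1, ferroportin, the sole known exporter of iron (ENSG00000138449, chromosome 2, 189560579 to 189583758 on the minus strand), measured 15.1 and 15.6 CPM in the monolayers and 97.3 and 107 CPM in the spheroids and rose by 2.74 ± 0.15 (log2 ratios 2.74 and 2.70, adjusted p = 0.000216). FTH1, the heavy chain of the iron store ferritin, measured 839 and 958 CPM in the monolayers and 2109 and 1875 CPM in the spheroids and rose by 1.15 ± 0.19 (log2 ratios 1.25 and 1.06, adjusted p = 0.0107). STEAP4, a metalloreductase, measured 0.481 and 0.961 CPM in the monolayers and 7.08 and 7.93 CPM in the spheroids, and the iron importer SLC11A2 measured 27.96 and 25.4 CPM in the monolayers and 47.2 and 49.6 CPM in the spheroids. Exporter, store, ceruloplasmin and importer all rose. Metallothioneins bind zinc and copper. MT2A measured 430.4 and 189 CPM in the monolayers and 54.3 and 46.5 CPM in the spheroids and fell by 2.62 ± 0.49 (log2 ratios -3.09 and -1.90, adjusted p = 0.016), and MT1E, at 189 and 52.9 CPM in the monolayers and 20.96 and 21.02 CPM in the spheroids, was not called (adjusted p = 0.0613). The zinc importer SLC39A4 measured 91.9 and 40.6 CPM in the monolayers and 20.7 and 17.6 CPM in the spheroids and fell by 1.79 ± 0.42 (log2 ratios -2.25 and -1.07, adjusted p = 0.0366). In all, 5 of 22 tested genes of the list rose and 3 fell. SLC40A1 passed in every leave-one-out fit, and FTH1, STEAP4, SLC11A2, MT2A and SLC39A4 did not (highest adjusted p per gene 0.104 to 0.248).

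Of 5 tested genes of the CEACAM family, surface glycoproteins of epithelia, 4 rose. Of 27 tested mucins, CEACAMs and secreted epithelial proteins 8 rose and 1 fell, with a median change of 1.34. CEACAM5, the carcinoembryonic antigen (ENSG00000105388, chromosome 19, 41708585 to 41729798 on the plus strand), measured 0.2404 and 1.21 CPM in the monolayers and 61.7 and 51.8 CPM in the spheroids and rose by 6.23 ± 0.63 (log2 ratios 6.86 and 5.29, adjusted p = 0.00234). CEACAM6 measured 0.2804 and 1.84 CPM in the monolayers and 24.9 and 20.7 CPM in the spheroids and CEACAM1, the member with an inhibitory tail, measured 1.08 and 0.878 CPM in the monolayers and 6.56 and 5.98 CPM in the spheroids (adjusted p = 0.00775 and 0.00241). CEACAM7 had 0 counts in both monolayer libraries and 25 and 47 counts in the spheroids, at least 18.3-fold higher. The family's close copies may share reads. BPIFB1, a secreted airway defence protein, was also at 0 in the monolayers (28 and 22 counts in the spheroids, at least 12.7-fold higher). CLCA2, a squamous relative of CLCA4, measured 9.61 and 39.04 CPM in the monolayers and 94.6 and 93.7 CPM in the spheroids (adjusted p = 0.0484). MUC1 (8.65 and 0.412 CPM in the monolayers and 11.5 and 11.1 CPM in the spheroids) and MUC4 (27.6 and 1.54 CPM in the monolayers and 17.2 and 8.14 CPM in the spheroids) were not called, and the secreted mucin MUC5B fell from 5 and 6 counts to 1 and 0 counts, a ratio of 0.0693 (95% interval 0.00161 to 0.477) (adjusted p = 0.0206). CEACAM5, CEACAM1, CEACAM7 and BPIFB1 passed in every leave-one-out fit, and CEACAM6, CLCA2 and MUC5B did not (highest adjusted p per gene 0.0589 to 0.203).

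Of 28 junction and polarity genes 5 rose and 0 fell. Tight junction protein CLDN8 measured 8.25 and 11.3 CPM in the monolayers and 33.1 and 36.3 CPM in the spheroids and rose by 1.83 ± 0.25 (log2 ratios 2.04 and 1.60), and the gap junction proteins GJB2 and GJB6, connexins of skin and cochlea, rose as well (adjusted p = 0.00571, 0.00498 and 0.01). GJB2 measured 29.5 and 23.4 CPM in the monolayers and 76.7 and 73.4 CPM in the spheroids. GJB6 measured 20.99 and 17.8 CPM in the monolayers and 59.2 and 58.6 CPM in the spheroids. CDH1 (0.45 ± 0.27, log2 ratios 0.98 and 0.06, adjusted p = 0.332), CDH3 (-0.33 ± 0.17, log2 ratios -0.16 and -0.48, adjusted p = 0.261) and EPCAM (-0.26 ± 0.14, log2 ratios -0.21 and -0.31, adjusted p = 0.291), the classical cadherins and a surface antigen of epithelia, were not called. Of 18 tested mesenchymal genes edgeR called 0 (2 higher and 2 lower at an unadjusted p under 0.05, 1 and 1 by DESeq2, 0 by voom), with VIM at most 0.12 CPM in any library. Of 30 laminins, collagens and hemidesmosome genes 4 rose, among them LAMB2, a basement membrane laminin chain, from 68.9 and 66.6 to 139 and 134 CPM and COL16A1 from 8.41 and 7.22 to 17.8 and 26.2 CPM (adjusted p = 0.00621 and 0.0124). None of CLDN8, GJB2, GJB6, LAMB2 and COL16A1 passed in every leave-one-out fit (highest adjusted p per gene 0.053 to 0.12).

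Receptors of Notch signalling and Wnt genes rose in part (5 of 33 tested, 0 fell). NOTCH1, a receptor that drives keratinocytes out of the basal layer, measured 83.6 and 119.8 CPM in the monolayers and 296 and 239.9 CPM in the spheroids and rose by 1.40 ± 0.22 (log2 ratios 1.68 and 1.16, adjusted p = 0.00803). NOTCH3 measured 223 and 326 CPM in the monolayers and 815 and 669.6 CPM in the spheroids and rose by 1.44 ± 0.22 (log2 ratios 1.73 and 1.19, adjusted p = 0.00803). The ligand WNT5A, which acts mostly without beta-catenin, measured 5.25 and 2.33 CPM in the monolayers and 21.8 and 19.7 CPM in the spheroids, and the receptor FZD7 measured 8.13 and 8.76 CPM in the monolayers and 25.1 and 25.5 CPM in the spheroids (adjusted p = 0.0181 and 0.00921). In these 4 genes no spheroid value fell within the monolayer range. Of 26 tested TGF-beta and BMP genes 2 rose (7.69%) and 3 fell (11.5%), beside 5.14% and 3.58% of all genes tested. The 3 that fell, FST, FSTL3 and NOG, encode secreted antagonists of that family. BMP3, described above as a secreted antagonist too, was among the 15 largest rises. FSTL3 measured 92.2 and 107 CPM in the monolayers and 42.4 and 39.7 CPM in the spheroids and fell by 1.28 ± 0.17 (log2 ratios -1.16 and -1.38, adjusted p = 0.00436), and NOG had 2 and 20 counts in the monolayers and 0 in the spheroids, at least 9.61-fold lower over the group. That bound rests on monolayer replicate 2, since the 2 counts of replicate 1 lie under the floor of 3. The ligand BMP2 rose from 7.89 and 5.52 to 25.1 and 24.8 CPM (adjusted p = 0.043). The BMP target ID1 lay between the monolayer libraries (1806 and 379 CPM in the monolayers and 794 and 759 CPM in the spheroids). None of NOTCH1, NOTCH3, WNT5A, FZD7, FSTL3, NOG and BMP2 passed in every leave-one-out fit (highest adjusted p per gene 0.0715 to 0.215).

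Many DNA replication genes fell. Of 40 tested 0 rose and 15 fell (37.5%, beside the 3.58% of all genes), with a median change of -0.86. ORC6, a subunit of the origin recognition complex (ENSG00000091651, chromosome 16, 46689643 to 46698394 on the plus strand), measured 43.3 and 49.6 CPM in the monolayers and 14.9 and 17.4 CPM in the spheroids and fell by 1.52 ± 0.19 (log2 ratios -1.41 and -1.60, adjusted p = 0.00422). CDT1, which loads the helicase at origins, measured 147 and 142 CPM in the monolayers and 55.1 and 57.1 CPM in the spheroids and fell by 1.37 ± 0.15 (log2 ratios -1.38 and -1.34, adjusted p = 0.0027). RFC4, a subunit of the clamp loader, measured 94.5 and 83.6 CPM in the monolayers and 34.7 and 34.7 CPM in the spheroids and fell by 1.36 ± 0.15 (log2 ratios -1.44 and -1.26, adjusted p = 0.0027). In each of them the monolayer libraries agreed and stood more than 2-fold above the spheroids. TK1, which salvages thymidine, measured 378 and 552 CPM in the monolayers and 181 and 165 CPM in the spheroids. Of the 6 subunits of the replicative helicase, MCM2 to MCM7, MCM5 and MCM7 fell and 4 were not called. MCM5 measured 220.0 and 218 CPM in the monolayers and 95.3 and 96.2 CPM in the spheroids, and MCM7 measured 212 and 395 CPM in the monolayers and 150.4 and 143 CPM in the spheroids (adjusted p = 0.0043 and 0.045). MCM3 was lower than both monolayer libraries (log2 ratios -0.10 and -1.05). MCM2, MCM4 and MCM6 lay between them, MCM2 at 16.9 and 223 CPM in the monolayers and 103 and 88.8 CPM in the spheroids and MCM4 at 126 and 433 CPM in the monolayers and 168 and 159 CPM in the spheroids. Against monolayer replicate 2 all 40 genes of the list were lower, beside 42% of all genes tested, and against replicate 1 23 were (57.5%), beside 44.6%. CDT1 and RFC4 passed in every leave-one-out fit, and ORC6, MCM5, MCM7 and TK1 did not (highest adjusted p per gene 0.0626 to 0.272).

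Genes that govern entry into replication changed too. Of 29 tested CDK inhibitors, cyclins of G1 and quiescence genes 3 rose and 4 fell. E2F1, the factor that switches on replication genes (ENSG00000101412, chromosome 20, 33675683 to 33686404 on the minus strand), measured 88.1 and 63.9 CPM in the monolayers and 28.3 and 33.8 CPM in the spheroids and fell by 1.29 ± 0.20 (log2 ratios -1.50 and -1.04, adjusted p = 0.00822). CDC25A, a phosphatase that activates cyclin-dependent kinases (ENSG00000164045, chromosome 3, 48157146 to 48188402 on the minus strand), measured 13.9 and 46.2 CPM in the monolayers and 8.47 and 8.402 CPM in the spheroids and fell by 1.84 ± 0.46 (log2 ratios -0.71 and -2.42, adjusted p = 0.0447). E2F2 measured 44.4 and 65.03 CPM in the monolayers and 26.9 and 26.1 CPM in the spheroids and fell as well (adjusted p = 0.0217). CDKN1B, the CDK inhibitor p27 of resting cells, measured 57.9 and 56.2 CPM in the monolayers and 102 and 102 CPM in the spheroids and rose by 0.84 ± 0.15 (log2 ratios 0.81 and 0.85, adjusted p = 0.0135), and the cell cycle brake CCNG2 measured 8.17 and 24.8 CPM in the monolayers and 68.2 and 84.5 CPM in the spheroids (adjusted p = 0.0189). The INK4 inhibitor CDKN2D, in contrast, fell from 56.1 and 49.1 to 25.5 and 21.04 CPM, and the p53 target CDKN1A (99.1 and 46.8 CPM in the monolayers and 127 and 113 CPM in the spheroids) was not called. GAS1, a growth arrest gene, had 0 counts in the monolayers and 12 and 14 in the spheroids, at least 6.61-fold higher and below 1 CPM throughout. Of the 30 mitosis genes only AURKB, UBE2C and PTTG1 were called, all lower, AURKB from 134 and 198 to 61.8 and 55.9 CPM (adjusted p = 0.00585), and 26 of the 30 lay above monolayer replicate 1 and below replicate 2. MKI67, the proliferation marker, was one of those not called (166 and 1210.0 CPM in the monolayers and 357 and 231 CPM in the spheroids). None of E2F1, CDC25A, E2F2, CDKN1B, CCNG2, CDKN2D, AURKB, UBE2C and PTTG1 passed in every leave-one-out fit (highest adjusted p per gene 0.079 to 0.256).

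Upstream sequences are shown for 3 genes that fell, since E2F sites near the start are a textbook feature of replication genes. Each is the 140 bases before the RefSeq start (GRCh38.p14, within 20 bases of the gene start in the deposited table), 5′ to 3′ on the gene's strand, with E2F-type letters (TTTNNCGC, both strands, overlapping matches merged) in capitals. They lie at chr16:46689519-46689658 on the plus strand (ORC6), chr20:33686386-33686525 on the minus strand (E2F1) and chr3:48188418-48188557 on the minus strand (CDC25A).
ORC6: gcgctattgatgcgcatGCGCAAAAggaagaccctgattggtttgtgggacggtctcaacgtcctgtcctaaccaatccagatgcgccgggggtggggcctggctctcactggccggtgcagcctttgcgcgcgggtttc
E2F1: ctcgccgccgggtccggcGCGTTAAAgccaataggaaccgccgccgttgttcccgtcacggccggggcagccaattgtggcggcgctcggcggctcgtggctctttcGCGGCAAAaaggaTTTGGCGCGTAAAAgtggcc
CDC25A: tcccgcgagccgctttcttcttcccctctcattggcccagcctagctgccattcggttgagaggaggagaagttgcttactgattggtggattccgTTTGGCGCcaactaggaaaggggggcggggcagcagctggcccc
The letters begin 123 bases before the start in ORC6, 44 in CDC25A and 122, 33, 20 and 14 in E2F1, where the last 2 matches overlap. In 250-base windows 15 of 33 replication genes with an entry held them (45.5%), as did 7 of the 12 that fell (58.3%) and all 4 of the genes of the G1 list that fell. The share was 8.21% over the tested genes with an entry, 5.93% over all promoters of the table and 10.8% over all genes that fell. A window without a match says only that these letters are not in it.

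**Figure D4:**
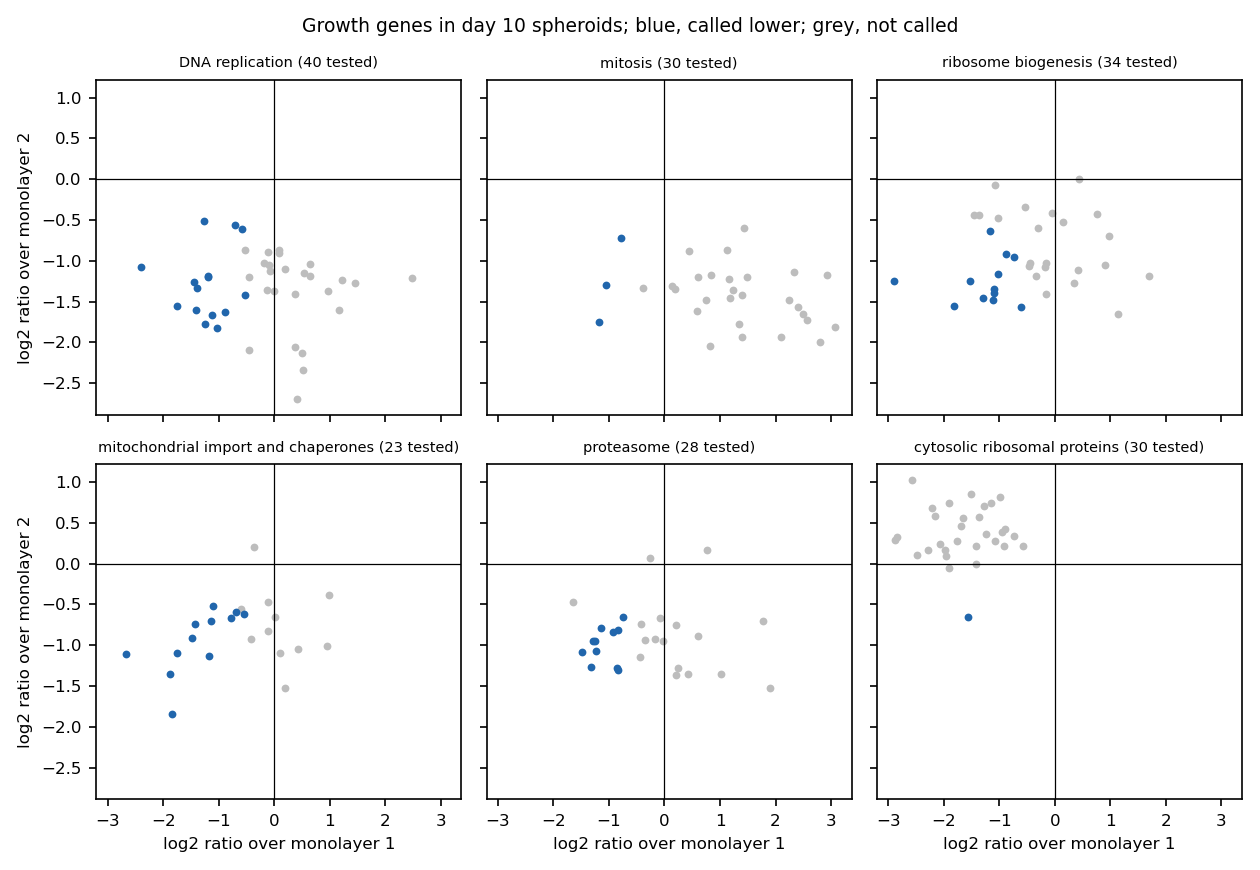
Log2 ratio of the day 10 mean to monolayer replicate 1 (x axis) and to replicate 2 (y axis) for the tested members of 6 growth lists, with called genes in blue. Replication, ribosome biogenesis, mitochondrial import and chaperone, and proteasome genes lie mostly below 0 on the y axis with the called ones below 0 on both, most mitosis genes lie at the lower right, and ribosomal protein genes at the upper left.

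Of 29 nucleotide and one-carbon genes 0 rose and 7 fell. NME1, a nucleoside diphosphate kinase, measured 56.04 and 23.8 CPM in the monolayers and 8.91 and 9.797 CPM in the spheroids and fell by 2.09 ± 0.35 (log2 ratios -2.55 and -1.32, adjusted p = 0.0107). MTHFD2, a mitochondrial folate enzyme, measured 228 and 170.1 CPM in the monolayers and 100.3 and 91.4 CPM in the spheroids and fell by 1.05 ± 0.19 (log2 ratios -1.25 and -0.83, adjusted p = 0.0143). The purine enzymes PPAT, GART and PFAS lay between the monolayer libraries and were not called. Of 34 ribosome biogenesis genes 0 rose and 12 fell (35.3%), and in 25 of the 34 both spheroid libraries lay below both monolayers. MRTO4, an assembly factor of the large subunit (ENSG00000053372, chromosome 1, 19251539 to 19260128 on the plus strand), measured 144 and 119.5 CPM in the monolayers and 42.7 and 38.6 CPM in the spheroids and fell by 1.70 ± 0.16 (log2 ratios -1.82 and -1.55, adjusted p = 0.00174). FBL, fibrillarin, which methylates ribosomal RNA, measured 512 and 420.2 CPM in the monolayers and 186 and 168 CPM in the spheroids and fell by 1.39 ± 0.17 (log2 ratios -1.53 and -1.24, adjusted p = 0.00357). NPM1, nucleophosmin, measured 872 and 1030.5 CPM in the monolayers and 403 and 410.0 CPM in the spheroids and fell by 1.23 ± 0.18 (log2 ratios -1.10 and -1.34, adjusted p = 0.00684). The monolayers agreed within a narrow range in these 3 genes. Of 20 aminoacyl-tRNA synthetases 6 fell and 0 rose, FARSB, a chain of the phenylalanine enzyme, from 145 and 133 to 48.99 and 51.4 CPM (adjusted p = 0.00234) and GARS from 236 and 164 to 96.6 and 91.2 CPM (adjusted p = 0.015). SLC7A5 and SLC3A2, the 2 chains of a leucine transporter, both fell (adjusted p = 0.0318 and 0.0181). SLC7A5 measured 3383 and 2081 CPM in the monolayers and 1072 and 945 CPM in the spheroids. SLC3A2 measured 1558 and 918 CPM in the monolayers and 509 and 449 CPM in the spheroids. They belong to a list of 27 amino acid stress and unfolded protein genes, of which 1 rose and 6 fell. Of its chaperone genes of the endoplasmic reticulum, SDF2L1 fell from 66.4 and 112 to 39.4 and 37.1 CPM and MANF from 61.5 and 71.6 to 38.9 and 38.8 CPM (adjusted p = 0.0186 and 0.0241). The glutamine transporter SLC38A2 rose, from 299 and 270.4 to 605 and 641 CPM (adjusted p = 0.00636). MRTO4 and FARSB passed in every leave-one-out fit, and NME1, MTHFD2, FBL, NPM1, GARS, SLC7A5, SLC3A2, SDF2L1, MANF and SLC38A2 did not (highest adjusted p per gene 0.0643 to 0.23).

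Of the 52 lists, that of mitochondrial protein import, chaperones, proteases and prohibitins had the largest share of falls, 12 of 23 genes (52.2%). It had 0 rises and a median change of -0.69. The lists were chosen with earlier results of these data known, so this ranking is a description and not a test. TOMM40, the channel of the outer membrane (ENSG00000130204, chromosome 19, 44890569 to 44903689 on the plus strand), measured 244 and 244 CPM in the monolayers and 68.8 and 67.2 CPM in the spheroids and fell by 1.84 ± 0.15 (log2 ratios -1.84 and -1.84, adjusted p = 0.000973). TIMM44, which anchors the import motor, measured 161 and 112 CPM in the monolayers and 41.3 and 45.7 CPM in the spheroids and fell by 1.65 ± 0.19 (log2 ratios -1.88 and -1.36, adjusted p = 0.0034). HSPE1, the cofactor of the matrix chaperonin, measured 77.7 and 48.8 CPM in the monolayers and 23.1 and 22.4 CPM in the spheroids and fell by 1.47 ± 0.23 (log2 ratios -1.76 and -1.09, adjusted p = 0.00783). The import receptor TOMM20 was not called (442 and 297 CPM in the monolayers and 342 and 341 CPM in the spheroids). Of 36 nuclear respiratory chain genes 5 fell and 0 rose, CYC1, a subunit of complex III, from 326 and 257 to 177 and 159.6 CPM (adjusted p = 0.0299). Of 28 proteasome subunits 11 fell (39.3%) and 0 rose. PSMB6, a catalytic subunit, measured 265 and 254 CPM in the monolayers and 111 and 100.4 CPM in the spheroids and fell by 1.30 ± 0.16 (log2 ratios -1.33 and -1.26, adjusted p = 0.00387), and PSMC5, an ATPase of the cap, measured 309 and 249 CPM in the monolayers and 128 and 131 CPM in the spheroids and fell by 1.11 ± 0.16 (log2 ratios -1.25 and -0.95, adjusted p = 0.00664). Of 26 cytosolic chaperones 3 fell, AHSA1, which activates HSP90, from 207 and 232 to 107 and 103 CPM (adjusted p = 0.00622), while HSP90AA1 and HSPA8 lay between the monolayer libraries. Against monolayer replicates 1 and 2, 17 and 22 of the 23 genes of the mitochondrial list and 19 and 26 of the 28 proteasome genes were lower, beside 44.6% and 42% of all genes tested. The mitochondrial share and the length dependence given above set replicate 1 apart, and their part in these falls was not tested. TOMM40 passed in every leave-one-out fit, and TIMM44, HSPE1, CYC1, PSMB6, PSMC5 and AHSA1 did not (highest adjusted p per gene 0.053 to 0.244).

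Several lists had members far from 0 against each monolayer library in opposite directions, and few or no calls. The 13 mitochondrially encoded protein genes had median log2 ratios of -3.98 and 1.17 to replicates 1 and 2, and the 30 ribosomal protein genes -1.61 and 0.33. For the 32 interferon-stimulated genes they were -0.81 and 2.62, for 18 antigen presentation genes -1.05 and 1.76, for 24 cholesterol synthesis genes 1.06 and -0.76 and for 30 mitosis genes 1.21 and -1.39. Interferon-stimulated genes had 0 calls by edgeR (1 higher and 1 lower at an unadjusted p under 0.05, 1 lower by DESeq2, 0 by voom), as had mitochondrially encoded ones (9 lower at an unadjusted p under 0.05, 8 lower by DESeq2, 0 by voom). No direction against both monolayers can be given for either list as a whole. Of the 32 interferon-stimulated genes, 5 lay above both monolayer libraries in both spheroid libraries and 0 below, beside 25.5% and 17.1% of all genes tested. Of ribosomal proteins RPS2 alone fell (6060.0 and 3207 CPM in the monolayers and 2149 and 1943 CPM in the spheroids), of cholesterol genes EBP alone (56.5 and 74.01 CPM in the monolayers and 36.3 and 35.8 CPM in the spheroids), and of 14 tested histone genes HIST2H2AC alone (0.801 and 1.56 CPM in the monolayers and 0.212 and 0.263 CPM in the spheroids). Within antigen presentation 2 genes rose. ERAP1, the peptidase that trims peptides for class I molecules (ENSG00000164307, chromosome 5, 96760810 to 96808100 on the minus strand), measured 22.4 and 22.3 CPM in the monolayers and 79.5 and 74.9 CPM in the spheroids and rose by 1.79 ± 0.18 (log2 ratios 1.77 and 1.78, adjusted p = 0.00188). TAP1, a chain of the peptide transporter, measured 65.1 and 54.8 CPM in the monolayers and 115 and 111 CPM in the spheroids and rose by 0.92 ± 0.15 (log2 ratios 0.80 and 1.04, adjusted p = 0.0105), while HLA-B measured 1912 and 35.7 CPM in the monolayers and 454 and 419.8 CPM in the spheroids and was not called. Of 30 tested chemokines and cytokines IL1RN, the antagonist of interleukin-1, alone was called, at 23.5 and 13.1 CPM in the monolayers and 38.6 and 39.1 CPM in the spheroids (adjusted p = 0.0486). Of 21 immediate early genes 4 rose and 0 fell, BHLHE41, a repressor of the circadian clock, from 25.5 and 36.9 to 111 and 118 CPM (adjusted p = 0.00765). The median change of that list was -0.76. At an unadjusted p under 0.05, 4 of its genes were higher and 8 lower, the same numbers by DESeq2. ERAP1 passed in every leave-one-out fit, and TAP1, RPS2, EBP, HIST2H2AC, IL1RN and BHLHE41 did not (highest adjusted p per gene 0.0697 to 0.266).

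**Figure D5:**
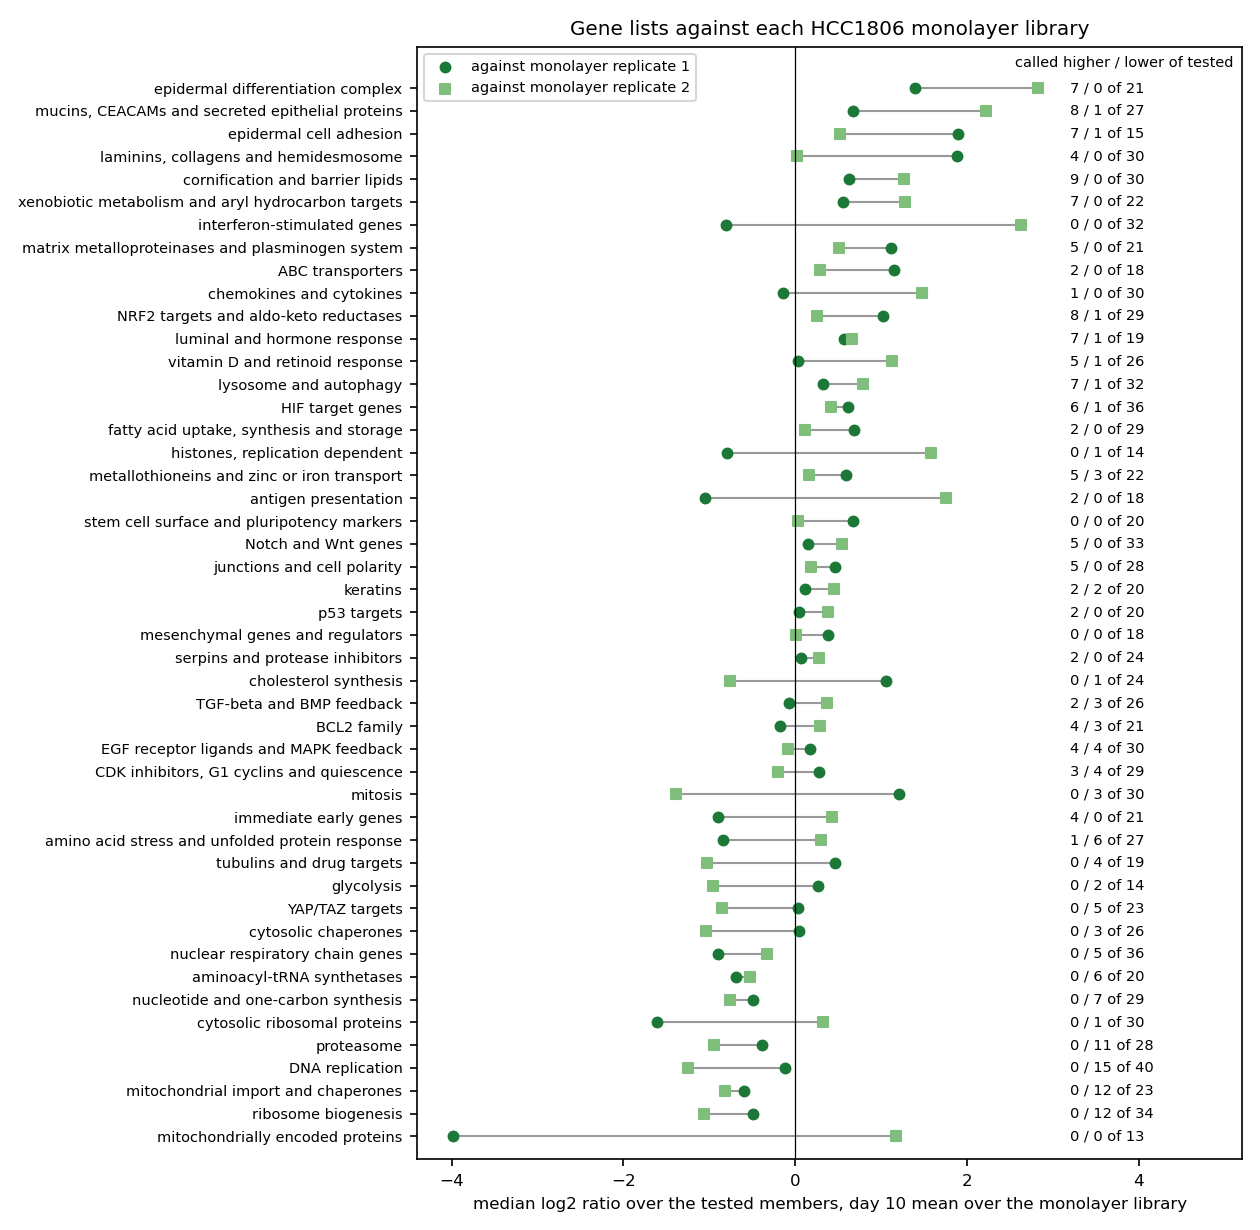
Median log2 ratio of the day 10 mean to monolayer replicate 1 (circles) and to replicate 2 (squares) over the tested members of the 47 lists with at least 10 of them, with the numbers called higher and lower at the right. Both medians lie above 0 in 22 lists and below 0 in 7, and long bars mark lists whose direction depends on the monolayer library.

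Genes of survival and degradation changed in several directions. Of 21 tested BCL2 family genes 4 rose and 3 fell. The killer protein gene BCL2L11 (BIM) measured 13.2 and 13.4 CPM in the monolayers and 34.3 and 36.4 CPM in the spheroids and rose by 1.41 ± 0.17 (log2 ratios 1.41 and 1.38, adjusted p = 0.00357), as did another BH3-only gene, BMF (adjusted p = 0.0316). The survival genes BCL2 and MCL1 rose by 1.05 ± 0.21 (log2 ratios 0.99 and 1.08) and 0.62 ± 0.16 (log2 ratios 0.61 and 0.63) (adjusted p = 0.0185 and 0.0436), and the pore-forming BAX fell by 1.00 ± 0.19 (log2 ratios -1.22 and -0.73, adjusted p = 0.0171). The rises thus held killers and survival genes alike. Genes of the lysosome and of autophagy numbered 32, with 7 rises and 1 fall. SQSTM1, the cargo receptor p62 (ENSG00000161011, chromosome 5, 179806398 to 179838078 on the plus strand), measured 203 and 246 CPM in the monolayers and 663 and 636 CPM in the spheroids, ULK1, which starts autophagy, measured 73.99 and 60.8 CPM in the monolayers and 140.5 and 144 CPM in the spheroids, and the protease CTSH measured 94.98 and 57.3 CPM in the monolayers and 255 and 249.6 CPM in the spheroids (adjusted p = 0.00302, 0.00803 and 0.00804). Of 29 fatty acid genes CD36 and PDK4 rose (6.9%) and 0 fell, near the 5.14% and 3.58% of all genes tested. PDK4, which keeps pyruvate from being oxidised, measured 1.402 and 0.933 CPM in the monolayers and 11.2 and 12.7 CPM in the spheroids. It rose by 3.36 ± 0.36 (log2 ratios 2.88 and 3.36, adjusted p = 0.00256). Of 20 p53 targets 2 rose (10%, beside 5.14% of all genes tested). They were TP53INP1, from 11.5 and 3.57 to 31.3 and 34.95 CPM (adjusted p = 0.0232), and ZMAT3 (adjusted p = 0.0199). MDM2 was not called (adjusted p = 0.178). BCL2L11, SQSTM1 and PDK4 passed in every leave-one-out fit, and BMF, BCL2, MCL1, BAX, ULK1, CTSH, TP53INP1 and ZMAT3 did not (highest adjusted p per gene 0.0682 to 0.259).

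For the questions in the study's title, 20 stem cell surface and pluripotency markers were tested and edgeR called 0. At an unadjusted p under 0.05, 4 were higher and 2 lower, by DESeq2 2 and 3, and by voom 0. Over all genes tested 5.14% were called higher and 3.58% lower. So few markers cannot be told from that share by a count of 0. CD44, an adhesion receptor used to mark breast cancer stem cells, measured 387 and 1199.7 CPM in the monolayers and 1374 and 1293 CPM in the spheroids, and CD24 measured 240.1 and 156 CPM in the monolayers and 271 and 279.8 CPM in the spheroids (adjusted p = 0.301 and 0.241). ALDH1A1, an aldehyde dehydrogenase of progenitors, measured 49.1 and 12.4 CPM in the monolayers and 91.8 and 93.1 CPM in the spheroids, and SOX2, a pluripotency factor, measured 0.881 and 14.6 CPM in the monolayers and 25.4 and 26.8 CPM in the spheroids, both above both monolayer libraries (adjusted p = 0.127 and 0.258). ALDH1A3 measured 39.3 and 146 CPM in the monolayers and 160.0 and 146 CPM in the spheroids, close to monolayer replicate 2. Among the 20, 9 lay above both monolayer libraries and 3 below both, beside 25.5% and 17.1% of all genes. Of the 18 drug-efflux and other ABC transporters ABCA12 and ABCC3 rose, ABCC3 from 61.5 and 53.4 to 171 and 163 CPM (adjusted p = 0.0107), and ABCB1 (0.1602 and 0.906 CPM in the monolayers and 0.3998 and 0.5004 CPM in the spheroids) and ABCG2 (0.481 and 12.9 CPM in the monolayers and 0.753 and 0.211 CPM in the spheroids) were not called. Of 19 tested tubulins and drug targets 4 fell, all beta-tubulins, TUBB6 from 124 and 162 to 66.8 and 54.6 CPM and TUBB4B from 605 and 834 to 432 and 393 CPM (adjusted p = 0.00919 and 0.0437). None of ABCC3, TUBB6 and TUBB4B passed in every leave-one-out fit (highest adjusted p per gene 0.0842 to 0.297).

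BT474, an ERBB2-amplified luminal line by general knowledge, offers the same contrast of day 10 spheroids with monolayers in libraries of its own, and there 21 genes rose (0.1% of those tested) and 6 fell (0.0287%). The change in HCC1806 was more positive than in BT474 for 200 genes (0.956%) and more negative for 82 (0.392%). Among the 30 largest changes 11 differed between the lines. These 30 were chosen by the change in HCC1806, which is part of the difference, so a raised share may follow from the choice. CEACAM5 measured 5.22 and 6.13 CPM in BT474 monolayers and 7.16 and 6.97 CPM in BT474 spheroids, a line difference of 5.92 ± 0.77 (adjusted p = 0.0153). BCAS1, far more abundant in BT474, measured 532 and 721 CPM in its monolayers and 441 and 407 in its spheroids (line difference 6.47 ± 0.92, adjusted p = 0.0217). Among the falls, AREG measured 12.3 and 13.1 CPM in BT474 monolayers and 16.4 and 16.7 in its spheroids (line difference -3.61 ± 0.43, adjusted p = 0.0112). TOMM40 measured 183 and 163 CPM in BT474 monolayers and 149 and 158 in its spheroids (line difference -1.67 ± 0.20, adjusted p = 0.0119), and SRM 108 and 98.8 against 85.1 and 88.7 CPM (line difference -1.64 ± 0.21, adjusted p = 0.0143). In all 5 of these the BT474 change was itself not called. The medium differs between the lines, and its part cannot be told apart from that of the line. For 6 of the 30 genes, SERPINB3, SERPINB4, RPTN, ADH7, PPP1R14A and FST, BT474 had no counts, and no line difference is given. Over all alternatives the line difference of CEACAM5 ran from 3.67 to 7.57 and that of BCAS1 from 3.77 to 8.41, and with a replicate block none of the 11 passed (adjusted p from 0.0632 to 0.141). The count of 282 fell to 8 to 61 when any library other than an HCC1806 monolayer was left out (8 without BT474 day 10 replicate 1, 11 without HCC1806 day 10 replicate 1).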

How the data were processed

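Poly(A) RNA was sequenced as 150 bp read pairs, per the labels' protocols. HISAT2 2.2.1 and featureCounts 2.0.6 with GRCh38 are named in the submitters' processing notes. The strand setting, and whether read pairs or single mates were counted, are not given in the sources used here. The authors deposited raw counts per gene for all 16 libraries and, as a second table, FPKM values per gene, whose normalisation is per gene length and library depth by the usual definition of the unit. The deposited counts were used for the main test and the FPKM values for an alternative alone.

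Genes were filtered with filterByExpr (minimum count 10, minimum total 15), scaled with TMM and fitted with edgeR 4.0.16 (R 4.3.3, robust quasi-likelihood) on the 12 HCC1806 and BT474 libraries in 6 groups, with Benjamini-Hochberg adjustment over 20929 genes. The fit was tested on simulated data. The SE is the absolute log2 fold change divided by the square root of F. Calls needed an adjusted p under 0.05 and were kept only where both spheroid libraries lay on the same side of both monolayer libraries, which all 1826 did. Named genes were the 15 largest rises and 15 largest falls by the smaller log2 ratio (protein coding, mean of at least 5 CPM), up to 8 called and the first 3 members of each of 52 lists, and a panel of 16. Members and lists were chosen with earlier results of these data known. Genes were singled out among these for the text, and GRHL1, MCM7 and uncalled members of 5 families added, after their values were seen. Depth was 32.4 M to 40.1 M counts per library compared. Alternatives were other scaling, filters and sample sets, DESeq2 1.42.0, limma 3.58.1 on voom values with library weights and on log2(FPKM + 1) or log2(FPKM + 0.1), a replicate block, halved counts and each library left out. The differences between replicates of the 2 groups correlated at -0.0495 over genes. The monolayer replicates differ so widely that this cannot show whether replicate numbers pair the samples, and no label says so. Promoter windows are those of RefSeq, matched by symbol for 13540 of 20929 genes. Figures were drawn with Python 3.11.15 and matplotlib 3.10.9.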

Additional observations from a re-analysis of the deposited data

Results flagged for a closer look

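For 11 of the 30 genes with the largest changes the day 10 change in HCC1806 differed from that in BT474 by edgeR's test of the difference itself (adjusted p under 0.05). The log2 difference, HCC1806 minus BT474, was 8.80 for CD36, 5.92 for CEACAM5, 6.47 for BCAS1 and 3.65 for SBSN (adjusted p = 0.0324, 0.0153, 0.0217 and 0.0446). It was -3.61 for AREG, -1.56 for CYR61, -2.22 for UPP1, -1.63 for CCDC85B, -1.64 for SRM, -1.99 for TNFRSF12A and -1.67 for TOMM40 (adjusted p = 0.0112, 0.0449, 0.0393, 0.0324, 0.0143, 0.041 and 0.0119). These 30 genes were chosen by their change in HCC1806, which is itself a part of the difference. That all 4 positive genes rose and all 7 negative genes fell in HCC1806 therefore follows from the choice, as may part of the 11. Over all genes tested 0.956% were more positive and 0.392% more negative in HCC1806. In BT474 none of the 11 was called, and CD36 measured 0.407 and 0.499 CPM in its monolayers and 0.244 and 0.141 CPM in its spheroids. Of 12 fits that each left out a library, CD36 passed in 4, CEACAM5 and AREG in 6, TOMM40 in 5 and each of the other 7 in 2. The highest adjusted p per gene in those fits ran from 0.103 to 0.249. By DESeq2 all 11 passed, and by voom with library weights AREG alone did (adjusted p = 0.0258). With a replicate block none of the 11 passed (adjusted p from 0.0632 to 0.141). Over all alternatives the difference ran from 2.11 to 10.49 for CD36, from 3.67 to 7.57 for CEACAM5 and from 3.77 to 8.41 for BCAS1. The lowest of each pair came from limma on log2(FPKM + 1) and the highest without an HCC1806 monolayer library, and each of the 11 kept its direction.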

How the results depend on the processing

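Calls numbered 1076 higher, 750 lower and 282 with a line difference in the main fit. They became 994, 879 and 284 with DESeq2's size factors and 1063, 758 and 284 without mitochondrially encoded genes. With halved counts they were 1249, 899 and 386, over 18378 genes tested. Without a count filter 1625 were higher and 1390 differed between lines, and with a filter at 1 CPM 461 differed. Fits on all 16 libraries gave 533, 301 and 36. Fits on the 6 HCC1806 libraries or on the 4 compared gave 0 higher and 0 lower (2915 and 1399 genes at an unadjusted p under 0.05). A replicate block gave 518, 274 and 14. DESeq2 gave 2040, 2060 and 2143, voom with library weights 30, 29 and 5, limma on log2(FPKM + 1) 1732, 1147 and 1130, and on log2(FPKM + 0.1) 1619 higher and 769 line differences. Leaving out each library in turn gave 136 to 6649 higher, 16 to 5228 lower and 8 to 10093 line differences, lowest without a day 10 library and highest without monolayer replicate 2. A group left with a single library was assumed to vary like the others. No named gene that was called changed direction, which the rule for keeping calls nearly fixed in advance. Among named genes 1969 values over all alternatives lost the call, 189 gained it and 144, all of genes that were not called, changed sign. The cause of these shifts was not tested. Counts below 3 in a group set only bounds, and the unequal monolayer libraries limit the precision of each change.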
